A study of Mus musculus with 10 samples.

Results

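The simple epithelial keratins examined here are the 6 genes Krt7, Krt8, Krt18, Krt19, Krt20 and Krt23, taken by symbol from the 56691 gene rows of an expression table of mouse esophageal epithelium. The table holds 10 bulk RNA-seq libraries. Of these, 5 came from p63CreERT2;Mst1loxp/loxp;Mst2-/- mice, called knockout, whose tamoxifen-dependent Cre is named for p63, the transcription factor of basal cells, and 5 came from wild-type mice, for which the labels name no Cre or floxed allele. Both groups received 100 mg/kg tamoxifen in 3 doses spaced 2 weeks apart, with collection at around 8 weeks. Cre, the floxed Mst1 allele and Mst2 loss differ together between the groups. The labels do not say that each library is a separate mouse, and p-values therefore measure the spread between these libraries, which may be technical. The comparison asks whether the knockout squamous epithelium gained keratins of simple or columnar epithelium.

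Keratins are intermediate filament proteins that assemble as pairs of a type II and a type I chain. Krt8 and Krt18 form the basic pair of simple, single-layered epithelia, Krt7 (type II) and Krt19 (type I) are found in ducts and many glandular linings, and Krt20 (type I) is known from intestinal and gastric surface epithelium and from urothelial umbrella cells. Krt23 is a less studied type I keratin. The stratified squamous epithelium of the esophagus is built instead on Krt5 and Krt14 in basal cells and Krt4 and Krt13 above them. Mst1 and Mst2 are the kinases at the head of the Hippo pathway, which restrains the coactivators YAP and TAZ and their TEAD partners.

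The targeted genes were read first. Stk3, which encodes Mst2, had 0.134 ± 0.0862 FPKM in knockout and 2.62 ± 0.521 FPKM in wild-type libraries (SD, n = 5 each), a log2 fold change of -1.67 with a limma adjusted p of 2.78e-06. Stk4, which encodes Mst1, had 15.6 ± 2.00 FPKM in knockout and 19.3 ± 2.41 FPKM in wild-type libraries (limma adjusted p = 0.123), and a whole-gene value does not check the deletion of a floxed part. FPKM scales a gene's fragments by the length of its model and by the fragment total of the library. Library depth, estimated from the values themselves, ran between 13068000 and 16444000 fragments, and 10878 to 11606 genes reached 1 FPKM per library.

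The promoters of 3 members are shown. Krt23 is the member that changed, and Krt7 belongs to the pair that moved together across libraries. Krt20 is the one whose promoter holds GGAATG among the 5 members with a promoter found, which leaves out Krt19. Each line gives 250 bases before to 50 bases after the start of the gene, from RefSeq on GRCm38.p6, 5′ to 3′ on the gene's strand. They lie at chr11:99493071-99493370 on the minus strand for Krt23, chr11:99438104-99438403 on the minus strand for Krt20 and chr15:101412153-101412452 on the plus strand for Krt7. Capitals mark 3 motifs searched on both strands. GGAATG is the core bound by TEAD factors, the letters TATAAA are a core promoter element, and TGANTCA is the type of site bound by AP-1.
Krt23: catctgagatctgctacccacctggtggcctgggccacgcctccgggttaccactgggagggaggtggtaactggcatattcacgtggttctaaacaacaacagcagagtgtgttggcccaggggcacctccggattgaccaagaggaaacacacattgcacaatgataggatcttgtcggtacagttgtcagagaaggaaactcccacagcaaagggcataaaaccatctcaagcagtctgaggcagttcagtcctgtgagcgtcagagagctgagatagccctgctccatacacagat
Krt20: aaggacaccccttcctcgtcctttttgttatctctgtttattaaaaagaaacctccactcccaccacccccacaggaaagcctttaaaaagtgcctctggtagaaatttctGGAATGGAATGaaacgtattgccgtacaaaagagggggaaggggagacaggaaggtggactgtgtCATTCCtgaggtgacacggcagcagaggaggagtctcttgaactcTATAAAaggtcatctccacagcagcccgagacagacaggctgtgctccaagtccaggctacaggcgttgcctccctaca
Krt7: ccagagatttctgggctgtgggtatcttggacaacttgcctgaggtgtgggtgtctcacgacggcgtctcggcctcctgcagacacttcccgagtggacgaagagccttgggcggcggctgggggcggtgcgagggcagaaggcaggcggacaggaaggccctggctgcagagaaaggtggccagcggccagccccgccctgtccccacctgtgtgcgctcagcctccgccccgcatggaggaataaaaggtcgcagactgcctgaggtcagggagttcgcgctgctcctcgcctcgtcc
The Krt20 window held 3 copies of GGAATG, of which 2 share bases, and 1 of TATAAA. Of the windows not shown, that of Krt8 held 2 overlapping copies of TATAAA and that of Krt18 held none of the 3 motifs. The Krt23 and Krt7 windows held none of these letters, which says nothing of the factors. Among 32851 mouse promoters of the same length, 14.7% held GGAATG and 1.36% held 2 or more copies, 13.6% held TATAAA, and 7.81% held TGANTCA.

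Krt23 fell in the knockout epithelium, whereas Krt7, Krt8, Krt18, Krt19 and Krt20 were low in both groups. Krt8 and Krt18 were near the limit of detection, and Krt7, Krt19 and Krt20 each had single libraries with over 100 fragments. The knockout libraries held 124, 181.32, 168.79, 195.81 and 166.03 FPKM of Krt23, against 327.17, 304.09, 268.76, 270.12 and 284.97 FPKM in the wild-type libraries. Each knockout library lay below each wild-type library. The means were 167 ± 26.9 FPKM in knockout and 291 ± 24.7 FPKM in wild type (SD, n = 5 each), so that Krt23 fell by 42.6%. In limma on log2(FPKM + 1), the log2 fold change was -0.81 (SE 0.14, 95% interval -1.10 to -0.51) with an adjusted p of 0.00258, Benjamini-Hochberg over 11386 genes. Krt23 was the 1 member of 6 that reached 1 FPKM in 5 libraries and so entered that fit. In the fit, 12.9% of genes were called, 7.9% as higher and 4.96% as lower in knockout. By non-overlap, 3.88% of genes had knockout values that each lay below the wild-type values, and 6.62% had the opposite separation (10.5% in either direction). In bulk libraries, fewer cells carrying a transcript and less transcript per cell cannot be told apart.

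**Figure D1:**
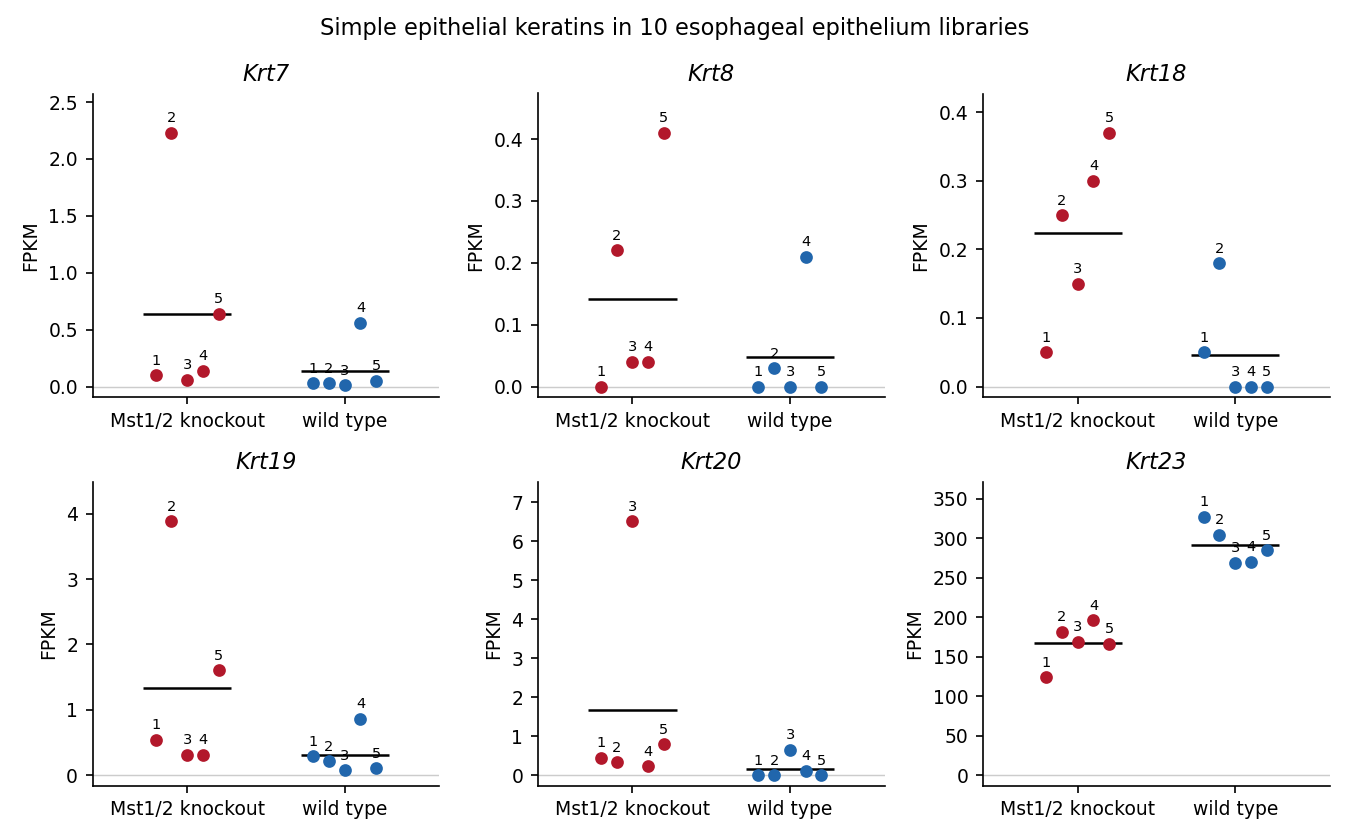
FPKM of each simple keratin in each library, with knockout left and wild type right; numbers are replicate labels, black lines are group means, and each panel has its own axis. Krt23 lies at 124 to 195.81 FPKM in knockout and 268.76 to 327.17 FPKM in wild type, while the other 5 genes stay below 7 FPKM in each library.

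The fall of Krt23 did not rest on 1 library: with each library left out in turn, the log2 fold change lay between -0.87 and -0.71 and the limma adjusted p between 0.00305 and 0.00914. The summed level of the fibroblast, endothelial and muscle markers differed by genotype as well, mainly through 1 gene, Dcn. That sum was 0.55 to 2.22 FPKM in knockout and 5.05 to 14.4 FPKM in wild type. Of the 16 markers, 15 stayed below 1 FPKM in each library, and 5 were at 0 throughout. The remaining gene, Dcn, a proteoglycan of connective tissue, had 0.308 ± 0.459 FPKM in knockout and 8.59 ± 3.93 FPKM in wild type (limma log2 fold change -2.83, adjusted p = 8.62e-05). With the mean of these markers as a covariate, the log2 fold change of Krt23 was -0.73 with a limma adjusted p of 1.00, and without Dcn in that mean it was -0.79 with an adjusted p of 0.00554, a setting chosen after seeing the data. The score with Dcn did not overlap between the groups, at 0.0426 to 0.149 in knockout and 0.202 to 0.310 in wild type. In the fit with that score, the marker level and genotype therefore cannot be told apart. Without Dcn the score overlapped, at 0.0398 to 0.0863 in knockout and 0.0531 to 0.0731 in wild type.

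**Figure D2:**
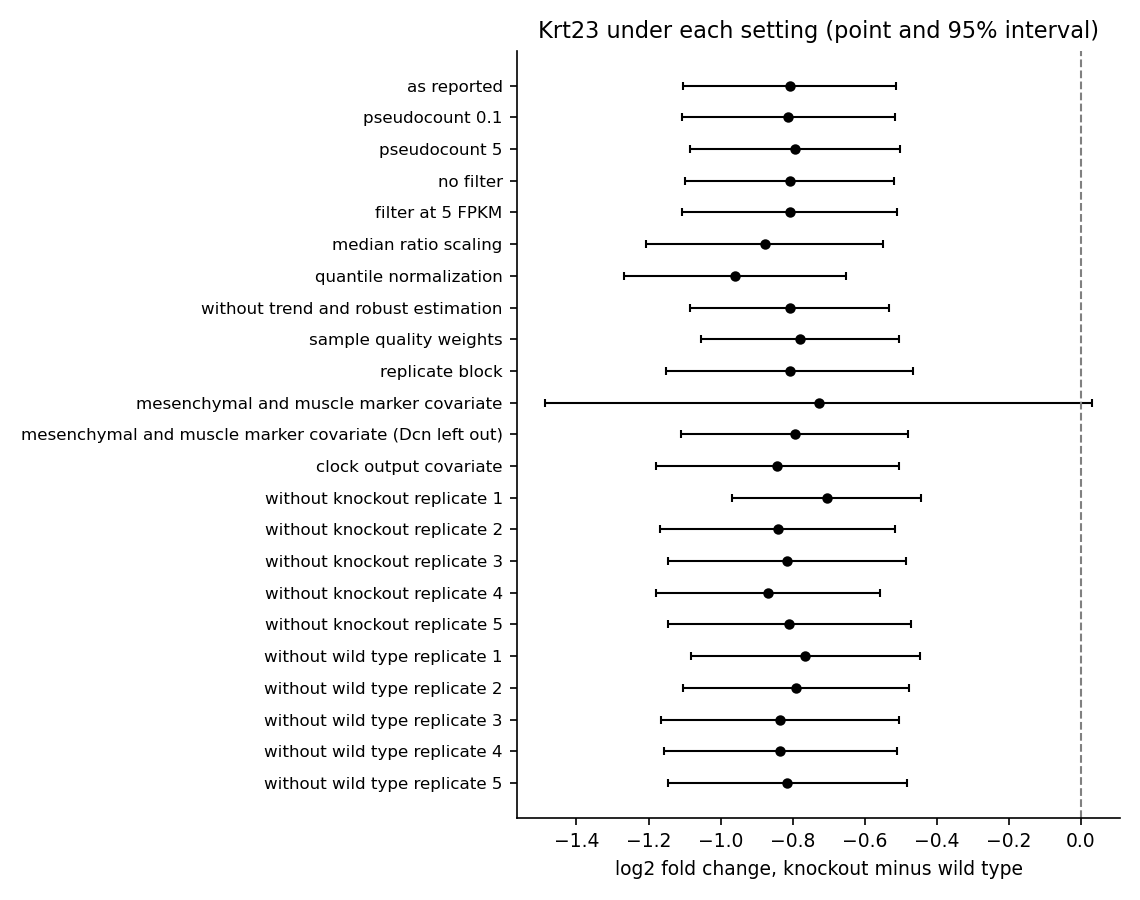
Log2 fold change of Krt23, knockout minus wild type, with its 95% interval (horizontal axis, log2 scale) under each processing setting and with each library left out. The interval reaches past 0 with the mesenchymal and muscle marker covariate, at a value of -0.73, and the other settings lie between -0.96 and -0.71.

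Around its group means, Krt23 varied most like Smyd4 (Pearson r = 0.94), Plcxd2 (r = 0.91) and Rnf103 (r = 0.90), correlations over 10 libraries that describe the tested genes with the highest values. Plcxd2, a phospholipase-like protein, had 5.97 ± 3.37 FPKM in knockout and 12.2 ± 2.76 FPKM in wild type (limma log2 fold change -1.03, adjusted p = 0.0492), and its call held with 2 of the 10 libraries left out in turn, those being knockout 4 and wild type 4 (adjusted p up to 0.115). Rnf103, a ubiquitin ligase of the endoplasmic reticulum, had 6.77 ± 1.46 FPKM in knockout and 7.08 ± 0.542 FPKM in wild type (limma adjusted p = 0.736). Krt23 made up 0.192% to 0.290% of the summed keratin FPKM in knockout libraries and 0.365% to 0.486% in wild-type libraries.

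Krt8 and Krt18, the basic pair of simple epithelia, were barely detected. Krt8 had 0, 0.22, 0.04, 0.04 and 0.41 FPKM in knockout libraries, against 0, 0.03, 0, 0.21 and 0 FPKM in wild-type libraries. At the estimated depth these are 0, 6, 1, 1 and 12 fragments in knockout, 20 in sum, against 0, 1, 0, 6 and 0 in wild type, 7 in sum. Libraries 2 and 5 of the knockout and library 4 of the wild type carried most of them, and the groups overlap. A library with no fragment allows up to 3, which for Krt8 is 0.0932 to 0.117 FPKM, counting error only. The difference in mean log2(FPKM + 1) was 0.12 (exact two-sided permutation p = 0.214, n = 5 each). Of the 31-base sequences of Krt8, 36.0% occur in another gene, most often the pseudogene Krt8-ps, which was at 0.07 FPKM in knockout 2 and at 0 in the other libraries, so the placement of Krt8 reads is uncertain.

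Krt18 had 0.05, 0.25, 0.15, 0.3 and 0.37 FPKM in knockout libraries, against 0.05, 0.18, 0, 0 and 0 FPKM in wild-type libraries. These values are 1, 5, 3, 6 and 8 fragments in knockout, 23 in sum, against 1, 4, 0, 0 and 0 in wild type, 5 in sum. Of the knockout libraries, 3 lay above the highest wild-type library, and the groups overlap. The difference in mean log2(FPKM + 1) was 0.22, with an exact two-sided permutation p of 0.0397 that is not adjusted for the number of genes; the smallest p that this design can give is 0.00794. In limma without the filter on low values, over 27599 genes of which 3.54% were called, 1.85% as higher and 1.69% as lower in knockout, the adjusted p of Krt18 was 0.174 with a 95% interval of 0.04 to 0.41. The exact p ran between 0.0238 and 0.0794 with each library left out in turn, and it was above 0.05 without knockout 2, 4 or 5 or wild type 3, 4 or 5. Of the Krt18 sequences, 11.4% occur in another gene.

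Krt7 and Krt19, the duct and gland keratins, were low in most libraries and higher in the same 3. Krt7 had 0.1, 2.23, 0.06, 0.14 and 0.64 FPKM in knockout libraries, against 0.03, 0.03, 0.01, 0.56 and 0.05 FPKM in wild-type libraries. Krt19 had 0.54, 3.89, 0.31, 0.31 and 1.61 FPKM in knockout libraries, against 0.29, 0.21, 0.07, 0.86 and 0.1 FPKM in wild-type libraries. Knockout 2, knockout 5 and wild type 4 are the high libraries of both genes, and the groups overlap. For Krt19 the values are 176 fragments summed over knockout and 42 over wild type, of which knockout 2 gave 102 and wild type 4 gave 23.

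Neither gene passed a test between the groups. Krt7 averaged 0.634 ± 0.923 FPKM in knockout and 0.136 ± 0.237 FPKM in wild type (SD, n = 5 each), a difference in mean log2(FPKM + 1) of 0.40 with an exact two-sided permutation p of 0.175. Krt19 averaged 1.33 ± 1.53 FPKM in knockout and 0.306 ± 0.322 FPKM in wild type, a difference of 0.66 with an exact two-sided permutation p of 0.119. The 95% intervals in limma without the filter were -0.25 to 1.05 for Krt7 and -0.12 to 1.44 for Krt19, both of which include 0. Without knockout 2 the mean of Krt7 in knockout was 0.235 FPKM. The Krt7 gene model used by the authors has at least 4626 bases, as its lowest values require, so that its FPKM is lower than on its longest coding transcript of 4094 bases.

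**Figure D3:**
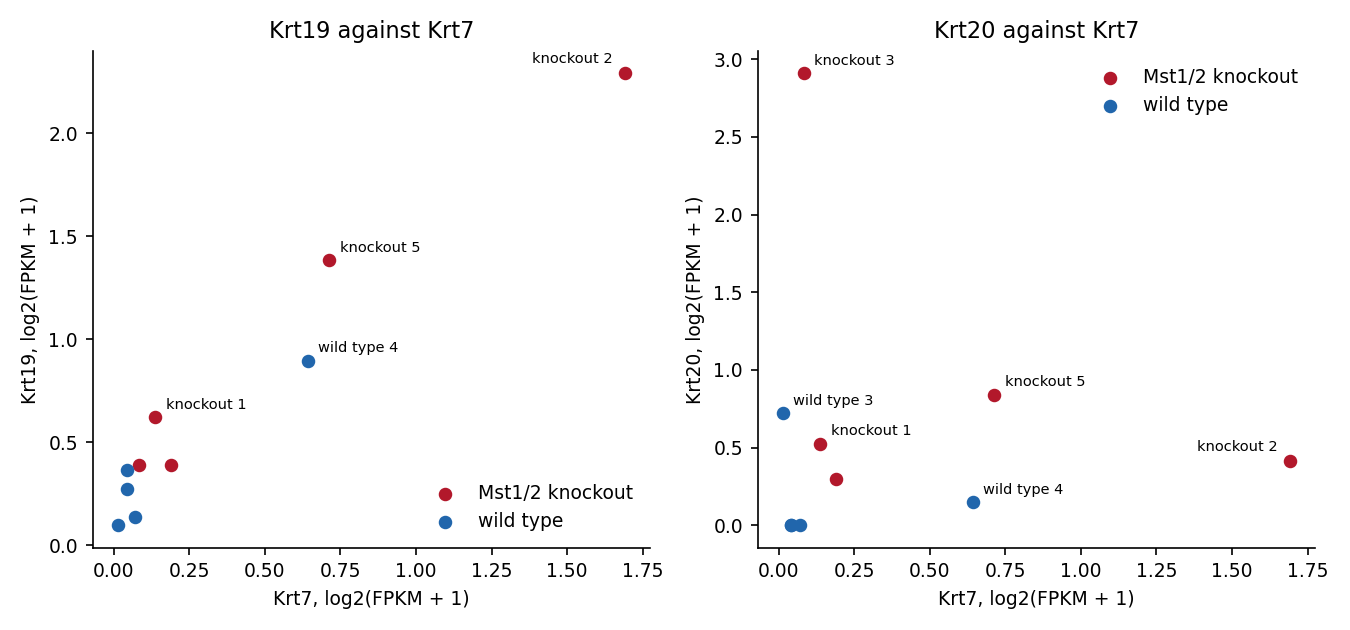
Members plotted against each other by library, on log2(FPKM + 1) axes, with knockout and wild-type libraries in separate colours. Krt7 and Krt19 lie along a line that ends in knockout 2, with a Pearson r of 0.975 over 10 libraries.

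Across the 10 libraries, log2(FPKM + 1) of Krt7 and Krt19 had a Pearson r of 0.975 (permutation p = 0.00017, adjusted p = 0.00255 over 15 pairs of members) and a Spearman rho of 0.939 (permutation p = 0.00022, adjusted p = 0.0033). Without knockout 2 and knockout 5, the libraries farthest from the median of Krt7, r was 0.856. This was the 1 pair of 15 past the threshold by Pearson's r, against 4 by Spearman's rho. Krt7 and Krt8 had a rho of 0.827 (permutation p = 0.00546, adjusted p = 0.0273), with r = 0.723 (adjusted permutation p = 0.207). Krt8 and Krt19 had a rho of 0.793 (adjusted permutation p = 0.0332), with r = 0.772 (adjusted permutation p = 0.140). Krt20 and Krt23 ran in opposite directions, with a rho of -0.841 (permutation p = 0.00409, adjusted p = 0.0273) and r = -0.483 (adjusted permutation p = 0.331), over libraries of both genotypes. Values of the pairs were not centred by genotype. As Krt23 separates the genotypes, its correlation with Krt20 cannot be told apart from the difference between the groups. Krt7 lies on chromosome 15 and Krt19 on chromosome 11.

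Markers of other epithelia were read beside these libraries. Upk1b, a uroplakin of urothelium and mesothelium, had 0, 2.57, 0, 0 and 1.14 FPKM in knockout libraries, against 0.19, 0.34, 0, 1.29 and 0 FPKM in wild-type libraries, and was highest in the libraries high in Krt7 and Krt19. Bnc1, a zinc finger factor of mesothelium and of squamous basal cells, did not have that order, with 4.07, 3.68, 6.1, 2.89 and 3.45 FPKM in knockout libraries, against 3.88, 3.03, 2.08, 4.17 and 2 FPKM in wild-type libraries. Aqp5, a water channel of gland cells, had 0.15, 2.34, 0.72, 0.06 and 0.51 FPKM in knockout libraries, against 0, 0.02, 0.08, 0.5 and 0 FPKM in wild-type libraries. Knockout 3, where Krt7 was lowest among the knockout libraries, was second in Aqp5. The 8 mesothelial markers summed to 3.76 to 7.33 FPKM in knockout and 2.15 to 5.62 FPKM in wild type, with 3 of them, Wt1, Nkain4 and Gpm6a, at 0 throughout. The 8 salivary gland markers summed to 0.37 to 2.77 FPKM in knockout and 0.12 to 1.03 FPKM in wild type, with 4 at 0 throughout. Thyroid markers summed to at most 0.06 FPKM in knockout and 0.05 FPKM in wild type, and Merkel and neuroendocrine markers to at most 0.17 FPKM in knockout and 0.37 FPKM in wild type, with Atoh1 and Isl1 at 0. The 12 airway markers summed to 268 to 478 FPKM in knockout and 300 to 811 FPKM in wild type, nearly all of it Cyp2f2, and the ciliated-cell regulator Foxj1 was at 0. The part of other cells in the Krt7 and Krt19 values was not tested.

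Krt20 was high in 1 knockout library. It had 0.44, 0.33, 6.51, 0.23 and 0.79 FPKM in knockout libraries, against 0, 0, 0.65, 0.11 and 0 FPKM in wild-type libraries. In fragments these are 11, 9, 174, 6 and 23 in knockout, 223 in sum, against 0, 0, 18, 3 and 0 in wild type, 21 in sum. Knockout 3 alone held most of the knockout fragments, 2 knockout libraries lay above the highest wild-type library, and the groups overlap. The means were 1.66 ± 2.72 FPKM in knockout and 0.152 ± 0.282 FPKM in wild type (SD, n = 5 each). Without knockout 3, the knockout mean was 0.448 FPKM. The difference in mean log2(FPKM + 1) was 0.82 (exact two-sided permutation p = 0.0714), with a 95% interval of -0.17 to 1.82 in limma without the filter. With each library left out, the difference lay between 0.34 and 1.00 and the exact p between 0.0317 and 0.167; it fell below 0.05 without knockout 2, knockout 4 or wild type 3, at differences of 0.97, 1.00 and 0.96. With a pseudocount of 0.1 in place of 1, the difference was 2.30 (exact p = 0.0397). Among the 5 promoters searched, that of Krt20 is the one with the GGAATG copies, and any part of TEAD factors in its values was not tested. None of the 31-base sequences of Krt20 occur in another gene.

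None of the 5 low members was called by limma without the filter. At an unadjusted p under 0.05, 1 of the 5, Krt18, passed in that fit, and the same number passed the exact permutation test. Mean FPKM was higher in knockout for each of the 5, and the knockout libraries above the highest wild-type library numbered 2 for Krt7, Krt8, Krt19 and Krt20 and 3 for Krt18. The share of all genes of such low level with the same direction or unadjusted p was not counted. Krt7, Krt8 and Krt19 were highest in the same knockout libraries, 2 and 5, so the 5 genes are not separate observations. Summed over the 5 genes, the libraries held 1.02 to 7.07 FPKM in knockout (median 3.82) and 0.15 to 1.74 FPKM in wild type (median 0.45). Of all keratin FPKM this was 0.00151% to 0.0106% in knockout and 0.00021% to 0.00258% in wild type.

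By mean FPKM over the libraries, Krt23 was number 9 of the 54 keratin genes found, Krt20 number 22, Krt19 number 24, Krt7 number 27, Krt18 number 29 and Krt8 number 30. The ranges of Krt20, Krt19, Krt7, Krt18 and Krt8 overlap one another, so the order among these genes is not beyond the spread between libraries. The squamous keratins were far above. Krt13 averaged 36642 FPKM in knockout and 36764 FPKM in wild type, and Krt4 averaged 24585 FPKM in knockout and 27514 FPKM in wild type, neither past the limma threshold.

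**Figure D4:**
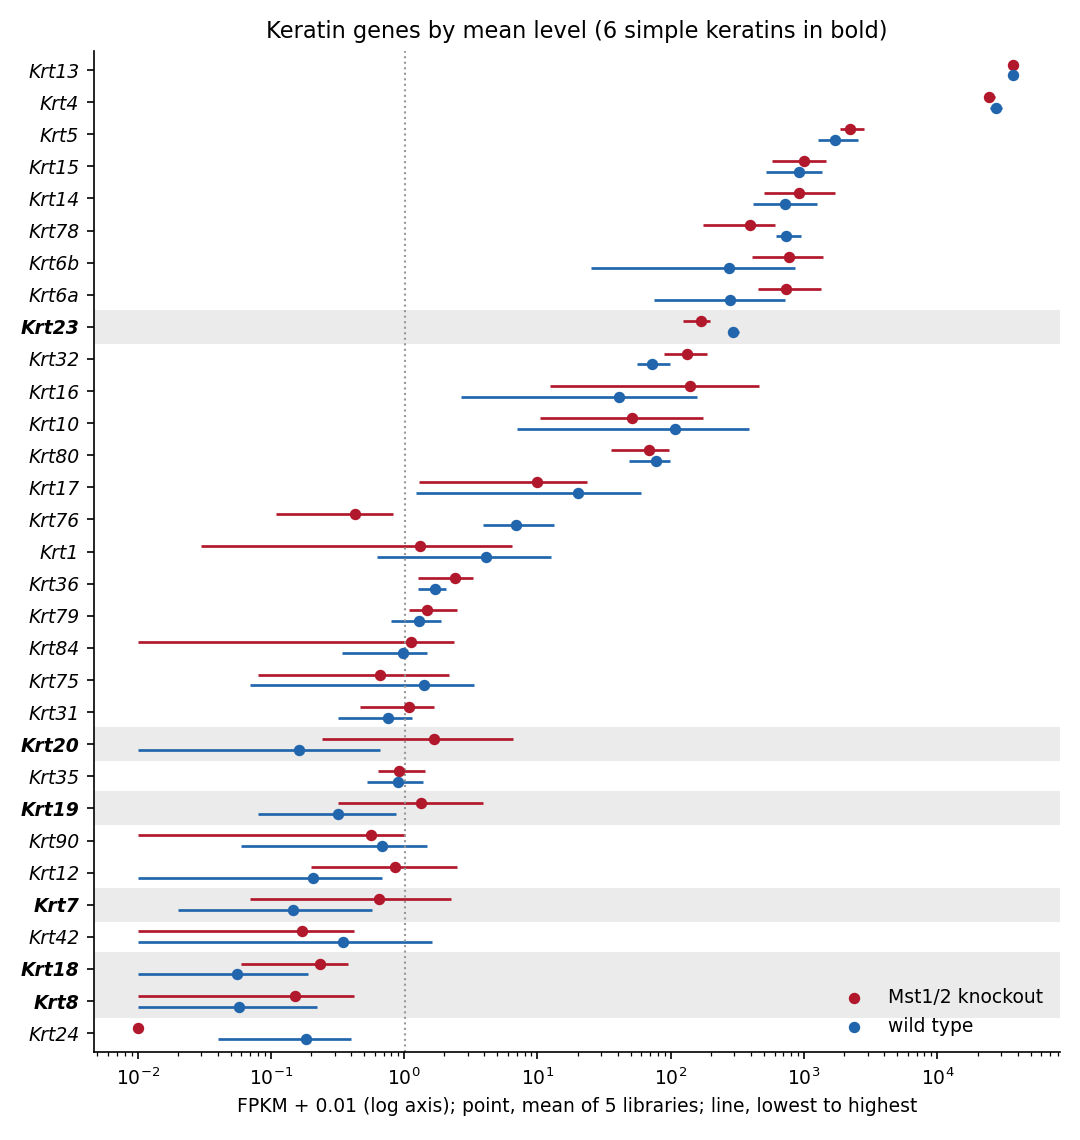
FPKM of the keratin genes down to Krt24, in order of mean level (horizontal log axis, FPKM + 0.01), with points for the mean of 5 libraries and lines from the lowest to the highest, knockout and wild type in separate colours, and the simple keratins shaded. Krt23 lies among the abundant keratins, at 167 FPKM in knockout and 291 FPKM in wild type, and the other 5 simple keratins have group means below 2 FPKM. The dotted line marks 1 FPKM.

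Of 55 keratin genes listed, 54 were found, 9 were at 0 in each library and 19 entered the limma fit. In that fit, 1 was higher in knockout, 3 were lower and 15 were not called, with a median log2 fold change of 0.11 against 0.06 over all tested genes. Krt76, a suprabasal keratin of oral epithelium, had 0.416 ± 0.305 FPKM in knockout and 6.95 ± 3.73 FPKM in wild type (limma log2 fold change -2.41, adjusted p = 0.000153). Krt78, a type II keratin of stratified epithelium, had 392 ± 165 FPKM in knockout and 732 ± 124 FPKM in wild type (limma adjusted p = 0.0385). Krt32, a type I hair keratin, had 133 ± 39.7 FPKM in knockout and 72.5 ± 19.1 FPKM in wild type (limma adjusted p = 0.0267). The calls of Krt23 and Krt76 held with each of the 10 libraries left out, that of Krt78 with 3 and that of Krt32 with 4. Krt78 lost its call without knockout 2, 3 or 5 or wild type 1, 2, 3 or 5 (adjusted p up to 0.0988), and Krt32 without knockout 1, 2 or 5 or wild type 3, 4 or 5 (up to 0.0717) and under quantile normalization (0.0537).

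With the settings used throughout, limma called no listed regulator or product of columnar epithelium higher in knockout, but 4 of the alternative settings called 1 each. Spdef was called higher with the replicate block (log2 fold change 0.99, adjusted p = 0.0483) and without wild type 3 (1.36, adjusted p = 0.0254). Elf3 was called higher without knockout 4 (0.47, adjusted p = 0.0415) and with the marker covariate without Dcn (0.42, adjusted p = 0.0453). Of 17 columnar regulators, 5 (Cdx1, Cdx2, Foxa2, Pdx1 and Barx1) were at 0 in each library, 6 entered the fit and 0 were called (median log2 fold change 0.07). At an unadjusted p under 0.05 there were 2, Elf3 and Spdef, both higher in knockout. The share of all tested genes at that unadjusted p was not counted and is at least the 12.9% called at the adjusted threshold. Elf3, an epithelial ETS factor, had 9.88 ± 1.90 FPKM in knockout and 7.39 ± 1.23 FPKM in wild type (limma adjusted p = 0.110). Spdef, a regulator of goblet and other secretory cells, had 1.39, 1.29, 5.41, 1.29 and 4.49 FPKM in knockout libraries, against 0.32, 0.25, 3.67, 0.63 and 0.13 FPKM in wild-type libraries (limma adjusted p = 0.161), and was highest in library 3 of each genotype. Foxa1, a pioneer factor of endodermal epithelia, had 5.82 ± 2.39 FPKM in knockout and 7.51 ± 3.08 FPKM in wild type (limma adjusted p = 0.434). Of 32 gastric and intestinal products, 31 were found, 11 were at 0 in each library, among them Tff1, Tff2, Tff3 and Muc5ac, 27 stayed below 1 FPKM and 2 were tested. Lgals4, a galectin of the gut lining, fell to 1.08 ± 0.436 FPKM in knockout, against 2.84 ± 0.970 FPKM in wild type (limma log2 fold change -0.87, adjusted p = 0.0148), and Epcam, an adhesion protein of epithelia, had 54.7 ± 13.1 FPKM in knockout and 49.3 ± 20.1 FPKM in wild type (adjusted p = 0.638). Some listed products below the filter had higher means in knockout. Agr2 averaged 0.620 FPKM in knockout and 0.278 FPKM in wild type (limma adjusted p without the filter 0.0688). Cldn7 averaged 0.316 and 0.042 FPKM (0.133), and Cldn3 averaged 0.168 and 0 FPKM (0.283). They were named after their values were seen, and the directions of the other products below the filter were not counted.

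Partners that anchor keratin filaments and regulators of squamous identity were mostly below the threshold. Of 16 keratin linkers, such as desmosomal plaque proteins, 14 were tested, 1 was higher and none lower, with a median log2 fold change of -0.05. Krtcap2, listed there by its name and known as a subunit of the enzyme that adds N-glycans, had 20.3 ± 3.11 FPKM in knockout and 14.8 ± 2.15 FPKM in wild type (limma adjusted p = 0.0437); its call was lost without knockout 1, 2, 4 or 5 or wild type 1, 3 or 5 (adjusted p up to 0.113), and under median ratio scaling (0.0642) and quantile normalization (0.0796). Of 14 squamous regulators, 13 were found, 12 were tested, none was higher and 1 was lower (median -0.07). This was Trp63, which encodes p63, the basal-cell factor after which the Cre is named, at 22.6 ± 3.58 FPKM in knockout and 38.8 ± 5.45 FPKM in wild type (limma log2 fold change -0.76, adjusted p = 0.00293). The labels name the Cre allele for the knockout group and not for wild type, so its part in the Trp63 value cannot be told apart from that of Mst1/2 loss. At an unadjusted limma p under 0.05 there were 5 of the 12 squamous regulators. Of these, 1, Ovol1, was higher in knockout, and Trp63, Pax9, Tfap2c and Foxe1 were lower. The share of all tested genes at that unadjusted p was not counted. It is at least the 12.9% called at the adjusted threshold, so the count is a description only.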

How the data were processed

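Total RNA of esophageal epithelium, freed from muscle and mesenchyme after Dispase digestion per the labels' protocols, was sequenced in 10 libraries, 5 per genotype. The authors deposited FPKM values, fragments scaled by gene length and library total, rounded to 2 decimals. The submitters' processing notes name cutadapt, HISAT2 2.0.1, HTSeq 0.6.1 and mm9; for the annotation, settings and strand use the sources are silent, so overlapping and antisense genes cannot be told apart.

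From these values, log2(FPKM + 1) was computed, which understates changes of low genes, and genes with at least 1 FPKM in 5 libraries were tested with limma 3.58.1 (R 4.3.3; genotype as the term, trended and robust empirical Bayes, Benjamini-Hochberg, threshold 0.05). Members below that filter were tested with an exact two-sided permutation of the libraries. Depth was estimated from genes of 1 block up to 1200 bases, with lengths from GENCODE M21 (GRCm38, which holds 52073 of the gene IDs): 94.7% to 97.8% of their values were whole fragments within 0.01 beyond rounding, against 9.46% to 11.3% by chance. As that build is not mm9, gene chromosomes alone are given from it. Promoters came from RefSeq, where 5 of 6 members matched; Krt19 did not. Scripts were tested on simulated data.

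The members and lists were chosen with earlier results of these data known. Named genes are the members, Stk3, Stk4, pseudogenes bearing a member's symbol, up to 4 genes of smallest p and 2 of highest mean per list, and the 3 genes most like Krt23. Wt1, Nkain4, Gpm6a, Foxj1, Atoh1, Isl1 and the other genes given at 0 were named after their values were seen. So were Krt6a, Krt6b, Krt10, Krt12, Krt15, Krt16, Krt24, Msln, Agr2, Cldn3, Cldn7 and Pax9. Alternatives were other pseudocounts, filters, scalings, variance models, weights, a replicate block, marker covariates and leaving out each library.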

Additional observations from a re-analysis of the deposited data

Results flagged for a closer look

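Of 12 groups of 5 libraries, 1 per simple keratin and genotype, 7 held a library far from the other 4, by Dixon's ratio of gap to range above 0.71. For normally distributed values chance flags about 1 in 20 groups. That rate does not apply to skewed values that rest on few fragments, with several at 0, as in Krt8 and Krt18. The flags therefore only mark libraries to look at. The groups share libraries, and wild type 4 accounts for 3 of the 7. Krt7 was 2.23 FPKM in knockout 2, and the knockout mean was 0.235 FPKM without that library, against 0.634 FPKM with it. Krt7 was 0.56 FPKM in wild type 4, Krt8 was 0.21 FPKM there and Krt19 was 0.86 FPKM there; without that library the wild-type means were 0.03, 0.0075 and 0.168 FPKM. Krt18 was 0.18 FPKM in wild type 2, and the wild-type mean without it was 0.0125 FPKM. Krt20 was 6.51 FPKM in knockout 3, where the next library held 0.79 FPKM. Krt20 was also 0.65 FPKM in wild type 3, where the next library held 0.11 FPKM.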

How the results depend on the processing

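The direction of each member was the same in the settings run for it. Krt23 stayed past the threshold in limma with a log2 fold change of -0.96 to -0.71 in 20 settings (adjusted p 0.00126 to 0.0121) and of -0.79 without Dcn in the marker covariate, but not with the full mesenchymal and muscle covariate (-0.73). Krt18 was 0.22 in each of the paired test with a replicate block (exact p = 0.125, the smallest possible being 0.0625) and the fit without a filter (limma adjusted p = 0.174), and 0.18 to 0.28 with 1 library left out. Krt20 was 0.82 in the paired test with a replicate block (exact p = 0.0625, the smallest that test can give). It was 2.30 with a pseudocount of 0.1 and 0.34 to 1.00 with 1 library left out. Leaving out 1 library gave 0.12 to 0.52 for Krt7, 0.04 to 0.17 for Krt8 and 0.34 to 0.82 for Krt19. The pseudocount moved the low members more: 0.1 gave 1.23 for Krt7, 0.60 for Krt8, 1.18 for Krt18 and 1.51 for Krt19, and 5 gave 0.12, 0.03, 0.05 and 0.23 for the same genes and 0.30 for Krt20. For these low members, the filter at 5 FPKM, the other variance model, the weights and the covariates were not run.

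Genes called numbered 1465, 36 with the mesenchymal and muscle covariate, 1291 without Dcn in it, 977 without a filter and 793 to 1770 with 1 library left out. Of the calls, 61.4% were higher in knockout, against 46.6% under median ratio scaling and 47.9% under quantile normalization, where the median log2 fold change of all genes was near 0 in place of 0.06. Keratins called numbered 4, with 2 without a filter, 0 with the mesenchymal and muscle covariate and 2 to 4 with 1 library left out. Columnar regulators and products called numbered 1, with 0 at the filter of 5 FPKM and with the mesenchymal and muscle covariate, 2 with the replicate block, 2 without Dcn in the covariate and 1 to 2 with 1 library left out; where 2 were called, 1 was higher in knockout. Over all tested genes, replicate numbers showed no clear pairing of the libraries. Same-numbered deviations from the group means correlated at 0.0609, 0.423, 0.194, -0.241 and 0.107, and 1 knockout library matched its own number best. That check cannot exclude a pairing, as Krt20 and Spdef were each highest in the same-numbered library of both genotypes. The block gave 1324 calls. Depth limits Krt8 and Krt18 most, which rest on 20 and 23 fragments summed over knockout, against 7 and 5 over wild type.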

Other observations

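Msln, a surface glycoprotein of mesothelium that some epithelia also express, was 0.928 ± 0.151 FPKM in knockout and 0.140 ± 0.0846 FPKM in wild type (SD, n = 5 each), with a limma adjusted p of 0.00141 without the filter on low values. Agr2, a protein disulfide isomerase of mucus-secreting cells, was 0.620 ± 0.124 FPKM in knockout and 0.278 ± 0.112 FPKM in wild type (limma adjusted p = 0.0688 without the filter). Krt24, a type I keratin, was listed at 0 in each knockout library and at 0.03 to 0.39 FPKM in wild type, with a mean of 0.172 FPKM. It was not called (limma adjusted p = 0.151 without the filter).

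The libraries with the highest Krt20 of each genotype also held the highest values of Krt6a, Krt6b, Krt10, Krt12 and Krt16. These keratins were chosen after their values were seen. Krt6a was 1334.59 FPKM in knockout 3 and 720.63 FPKM in wild type 3. Krt6b was 1385.48 FPKM in knockout 3 and 855.08 FPKM in wild type 3. Not all keratins shared that order. Krt15 was lowest in the same libraries, at 573.67 FPKM in knockout 3 and 515.74 FPKM in wild type 3. Krt12, known as a corneal keratin, was 2.49 FPKM in knockout 3 and 0.67 FPKM in wild type 3. Krt16, a keratin of stressed and proliferating epidermis, was 459.39 FPKM in knockout 3 and 156.53 FPKM in wild type 3. Krt10, a keratin of cornifying epidermis, was 173.56 FPKM in knockout 3 and 389.2 FPKM in wild type 3. None of Krt6a, Krt6b, Krt10, Krt12 and Krt16 passed the limma threshold between the genotypes.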
